A study of Homo sapiens with 4 samples.

Results

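The comparison described here sets 8505C cells treated with dihydrotanshinone (DHT) against SW1736 cells treated in the same way, and reads the difference as the gap between the lines under the compound. SW1736 and 8505C are established human cell lines from anaplastic thyroid cancer, an undifferentiated tumour of the thyroid follicular epithelium. DHT is a tanshinone, a diterpene quinone of the root of Salvia miltiorrhiza, and the letters do not stand here for the androgen dihydrotestosterone. Both lines were grown in RPMI-1640 with 10% fetal bovine serum and received DHT at 1.5 µM or its vehicle, dimethyl sulfoxide (DMSO), for 24 h. There was 1 messenger RNA library for each line and treatment, so the 4 libraries were SW1736 with vehicle, SW1736 with DHT, 8505C with vehicle and 8505C with DHT.

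Members of the comparison were all genes that averaged 1 TPM or more (transcripts per 1000000, a level scaled to gene length and to the library's total) over the 2 treated libraries. That rule took 13049 of 26485 gene identifiers, of which 11637 were protein-coding. The gap of a gene was log2(TPM + 1) in 8505C minus log2(TPM + 1) in SW1736, so a positive gap means a higher level in 8505C, and the pseudocount of 1 makes the gap of low genes smaller than their ratio of levels. With 1 library a group there is no replicate error and no test, and each line stands for 1 culture. A gene was counted as apart when its gap was at least 2-fold, and every such count describes these libraries, not the conditions. Just inside the level rule, from 1 up to 1.1 TPM, 38.9% of 126 genes were 2-fold apart, and just outside it, from 0.9 up to 1 TPM, 33.5% of 164 genes were.

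Several kinds of stress-responsive genes recur in what follows. Immediate early genes such as EGR1 code for transcription factors that are switched on within minutes of growth factor or stress signals, in part through serum response factor bound to CArG boxes before the gene. Heat shock genes such as HSPA6 code for chaperones and are switched on by heat shock factor bound to heat shock elements when proteins misfold. BHLHE40 codes for a basic helix-loop-helix repressor of the circadian clock that is also induced by hypoxia and other stresses.

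The 3 genes that mark treated SW1736 are shown first with the sequence just before their start sites, because they were chosen to represent the genes that were high in that library. The sequences come from RefSeq (GRCh38.p14), run 5′ to 3′ on the plus strand, and carry the motif matches in capitals. They lie at chr5:138465229-138465478 for EGR1, at chr1:161524290-161524539 for HSPA6 and at chr3:4979187-4979411 for BHLHE40.
EGR1: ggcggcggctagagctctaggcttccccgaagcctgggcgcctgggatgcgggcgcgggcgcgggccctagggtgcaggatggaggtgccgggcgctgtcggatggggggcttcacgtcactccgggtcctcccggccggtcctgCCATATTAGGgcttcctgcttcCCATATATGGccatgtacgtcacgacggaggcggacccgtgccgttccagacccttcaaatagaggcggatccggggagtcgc
HSPA6: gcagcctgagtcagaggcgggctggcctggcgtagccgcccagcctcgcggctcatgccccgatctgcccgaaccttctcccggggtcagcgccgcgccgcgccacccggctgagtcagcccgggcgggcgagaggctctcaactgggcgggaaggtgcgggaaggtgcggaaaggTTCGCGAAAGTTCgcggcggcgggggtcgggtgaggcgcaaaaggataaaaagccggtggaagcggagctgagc
BHLHE40: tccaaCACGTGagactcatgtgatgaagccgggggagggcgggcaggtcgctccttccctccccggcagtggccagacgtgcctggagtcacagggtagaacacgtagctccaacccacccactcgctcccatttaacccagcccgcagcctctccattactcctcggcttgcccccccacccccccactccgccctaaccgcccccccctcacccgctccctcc
In EGR1 the capitals mark 2 CArG boxes, which begin 105 and 83 bases before the start. In HSPA6 they mark a heat shock element that begins 74 bases before the start, and in BHLHE40 a CACGTG that begins 245 bases before it. The BHLHE40 window was shortened to 225 bases because the gene as deposited starts inside it. Both strands were searched for the CArG box, for the heat shock element (3 alternating GAA and TTC units parted by 2 bases each, starting with either), for TATAAA and for CACGTG. Over 35116 RefSeq promoters, 1.16% held a CArG box, 0.441% a heat shock element, 10.7% TATAAA and 6.34% CACGTG. A heat shock element was found in 7 of 22 heat shock genes with a promoter in the table, and a CArG box in 3 of 25 immediate early genes. A match describes the letters and does not show that a factor was bound.

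EGR1 was the gene with the widest swing between the lines. Its level in SW1736 was 2.62 TPM with vehicle and 2060 TPM with DHT, and in 8505C 18.3 and 13.5 TPM. It was thus higher in 8505C with vehicle, with a gap of 2.42, and far lower in 8505C with DHT, with a gap of -7.15. HSPA6, a strictly inducible member of the 70 kDa heat shock protein family, was near 0 in 3 of the 4 libraries, at 0.365 TPM in SW1736 with vehicle and 0.307 and 0.239 TPM in 8505C. In treated SW1736 it stood at 242 TPM, and the gap was -7.61 with DHT and -0.06 with vehicle. BHLHE40 read 33.3 and 1728 TPM in SW1736 without and with the compound, and 19.5 and 19.6 TPM in 8505C. Its gap was -6.39 with DHT and -0.74 with vehicle. All 3 genes were therefore high in a single library, treated SW1736. BHLHE40 overlaps another gene in the files, and HSPA6 shares 45.5% of its 50-base words with HSPA7, so reads may be split between these neighbours.

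**Figure D1:**
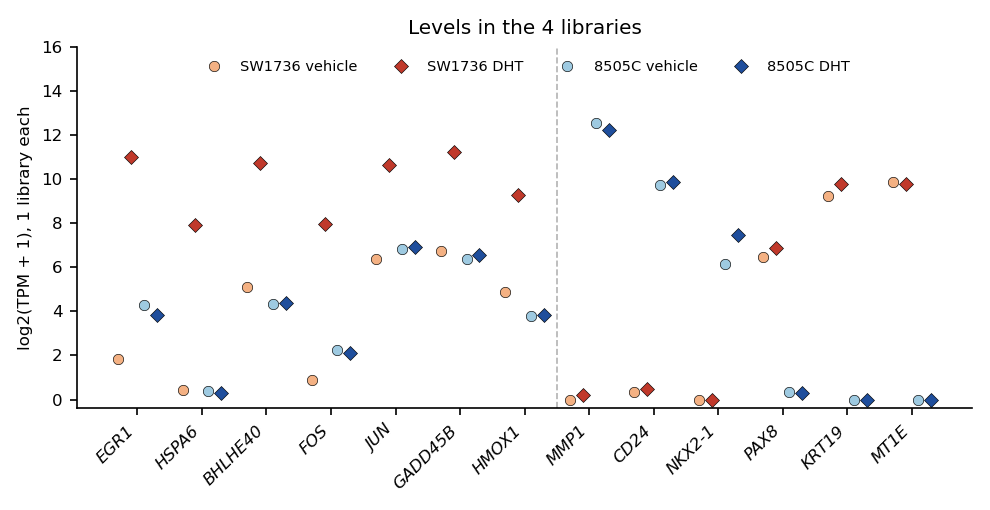
Levels of EGR1, HSPA6, BHLHE40 and other named genes in the 4 libraries, as log2(TPM + 1), with 1 point per library. Treated SW1736 lies above the other 3 libraries for the 7 genes left of the dashed line, and the lines differ in both conditions for the 6 genes right of it.

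Across all members the gap was lopsided with DHT and nearly even with vehicle. With DHT, 3177 genes (24.3%) were at least 2-fold higher in 8505C and 1526 (11.7%) at least 2-fold lower, together 36.0% of the genes. With vehicle, the same genes gave 1294 higher (9.92%) and 1668 lower (12.8%), together 22.7%. The median gap was 0.35 with DHT and -0.06 with vehicle, so the middle of the distribution itself had shifted. With each comparison centred on its median gene, the treated lines gave 1934 genes higher (14.8%) and 2234 lower (17.1%), together 31.9%, and the majority of higher genes was gone. On the authors' FPKM scale (fragments scaled to gene length and library size), 1906 genes were higher and 1459 lower. Directions below are on the TPM scale, and any gap between 0 and about 0.35 lies at or under the shift of the median gene.

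Several properties of the libraries moved with that shift. Cytosolic ribosomal protein genes held 20.6% of all TPM in treated SW1736 and 15.6%, 17.0% and 17.1% in SW1736 with vehicle and in 8505C with vehicle and DHT. The sum of FPKM was 511866 in treated SW1736 and between 437144 and 444082 in the other 3 libraries. Aligned sequence, inferred from coverage and FPKM, was 3.26 to 4.14 Gb per library, and treated SW1736 lay inside that range at 3.85 Gb. Among protein-coding genes with a GENCODE 29 length, the longest of 3 equal groups by messenger RNA length had a median gap of 0.57 with DHT, against 0.33 and 0.27 in the middle and shortest groups. With vehicle the same groups stood at -0.04, -0.07 and -0.03. The part of length, library composition and RNA quality in the gaps was not tested. In a bulk library a lower level in each cell and fewer cells with the transcript cannot be told apart.

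Setting the treated gap beside the gap with vehicle, which shares no library with it, sorted the genes into 4 classes. A gap was kept when it was 2-fold the same way in both, as for 1164 genes higher and 968 lower in 8505C. It was opened when it was 2-fold only with DHT, as for 2001 genes higher and 540 lower, and closed when it was 2-fold only with vehicle, as for 112 genes that had been higher and 688 that had been lower. It was reversed, 2-fold in opposite directions, for 18 genes that went to lower and 12 that went to higher. Of the genes higher in 8505C with DHT, 36.6% had been so with vehicle, and these were 90.0% of the vehicle list. Of those lower with DHT, 63.4% had been so with vehicle, which was 58.0% of that list. Centred on the median gene, 852 gaps opened higher and 1022 lower, so the larger number of openings towards 8505C was not kept. Across genes the 2 gaps had a Pearson r of 0.82 and a Spearman rho of 0.76, and genes are not independent replicates.

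**Figure D2:**
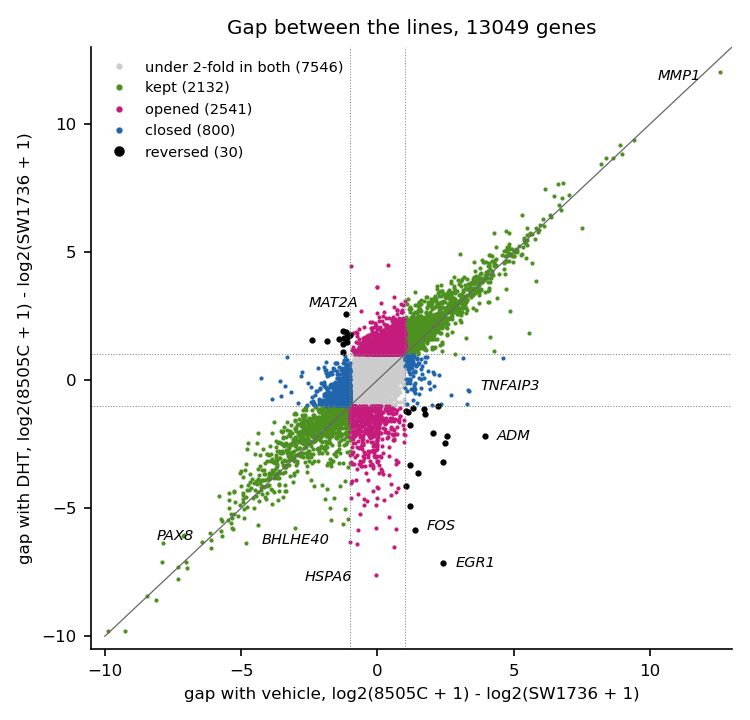
Gap between the lines with vehicle (x axis) and with DHT (y axis), both log2, with 1 point for each of 13049 genes and colours for the 4 classes. Points above the diagonal have a higher gap with DHT than with vehicle, as 77.5% of genes had.

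The change of a gap equals the response to DHT in 8505C minus that in SW1736, and the responses were very unequal in number. In SW1736, 535 of the 13049 genes (4.10%) were at least 2-fold higher with DHT than with vehicle and 1966 (15.1%) at least 2-fold lower. In 8505C the counts were 85 (0.651%) and 28 (0.215%), together 0.866%, where SW1736 gave 19.2%. The 2 comparisons within a line share their libraries with the gaps, so these counts are given side by side only.

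Among early response genes, 25 of 35 measured were lower in treated 8505C and 2 were higher, with a median gap of -1.90 beside 0.35 for all genes. For this and every later list, the shares over all genes were 24.3% higher and 11.7% lower with DHT. With vehicle those shares were 9.92% higher and 12.8% lower. With vehicle, 3 of the early response genes were lower and 7 higher, and the median was 0.13. FOS, a subunit of the AP-1 transcription factor, was at 0.840 TPM and 252 TPM in SW1736 without and with DHT, and at 3.74 and 3.34 TPM in 8505C. Its gap turned from 1.36 with vehicle to -5.87. FOSB, another FOS family subunit, read 1.78 and 88.6 TPM in SW1736 and 0.680 and 0.556 TPM in 8505C. JUN, the partner of FOS in AP-1, was abundant in every library, at 82.7 and 1575 TPM in SW1736 and at 112 and 120 TPM in 8505C. NR4A1, an orphan nuclear receptor, stood at 2.60 and 108 TPM in SW1736 and at 3.28 and 3.25 TPM in 8505C. In each of these 4 genes treated SW1736 was the single high library. The 2 members higher in treated 8505C, named after their values were seen, were DUSP1, a phosphatase that inactivates MAP kinases, and CTGF, a secreted matrix protein. DUSP1 read 23.1 and 235 TPM in SW1736 against 470 and 517 TPM in 8505C, so its gap narrowed from 4.29 to 1.14 and stayed on the 8505C side.

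Growth arrest and damage genes of the GADD45 family showed the same shape. GADD45B was at 106 TPM in SW1736 with vehicle and 2442 TPM with DHT, and at 81.0 and 92.4 TPM in 8505C, a gap of -4.71 against -0.38 with vehicle. GADD45A stood at 86.8 and 775 TPM in SW1736 and 75.3 and 79.0 TPM in 8505C. GADD45G was listed at 0 in both 8505C libraries and at 0.393 and 24.0 TPM in SW1736. Over the p53 target list, 8 of 19 measured genes were lower in treated 8505C and 2 higher, with a median of -0.54. Of all genes 11.7% were lower and 24.3% higher. With vehicle 4 of the list were lower and 1 higher with a median of -0.20, beside 12.8% and 9.92% of all genes. BBC3, which codes for the pro-apoptotic protein PUMA, had a gap of -2.85 with DHT and -1.38 with vehicle. It overlaps another gene.

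The heat shock list was divided. Of 22 measured genes, 7 were lower in treated 8505C and 3 higher, beside 11.7% and 24.3% of all genes. The list's median gap was 0.12, below the 0.35 of all genes. With vehicle it was 0.59 with 3 higher and 2 lower, beside 9.92% and 12.8% of all genes. On the lower side HSPA6, HSPA1A, HSPA1B, DNAJB1, CRYAB and BAG3 had their highest level in treated SW1736 and a lower gap with DHT than with vehicle. HSPB1, also on that side, had a gap of -1.29 with DHT and -1.28 with vehicle. DNAJB1, BAG3 and HSPB1 were named after their values were seen. CRYAB, a small heat shock protein, read 0.545 and 60.6 TPM in SW1736 and 1.61 and 2.36 TPM in 8505C. HSPA1B was at 153 and 2555 TPM in SW1736 and at 247 and 263 TPM in 8505C, and HSPA1A had nearly the same gap, -3.20 against -3.27. These 2 share 72.6% of 50-base words, so how reads were divided between them is uncertain, while their low and high libraries were the same. The 3 members on the other side, chosen after their values were seen, were HSPA4L with a gap of 1.72, CHORDC1 with 1.59 and DNAJA1 with 1.28. Their gaps with vehicle were already 1.51, 1.24 and 0.98.

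Genes of the hypoxia and glucose response were lower in treated 8505C in 10 of 23 measured cases and higher in 1, LOX, a collagen crosslinking oxidase. The median was -0.91, against 0.25 with vehicle, where 4 were lower and 5 higher. Over all genes 11.7% were lower and 24.3% higher with DHT, and 12.8% and 9.92% with vehicle. DDIT4, an inhibitor of mTORC1, stood at 7.22 and 276 TPM in SW1736 and at 21.9 and 21.8 TPM in 8505C, which turned its gap from 1.48 to -3.61. CA9, a carbonic anhydrase and a common hypoxia marker, was at 3.07 and 18.2 TPM in SW1736, at 0.134 TPM in 8505C with vehicle, and listed at 0 in treated 8505C. PFKFB3, which raises the activator of phosphofructokinase, had a gap of -3.39 with DHT and -1.08 with vehicle and overlaps another gene. Of 21 glycolysis genes, 4 were lower and 1 higher, with a median of -0.41 against -0.09 with vehicle. The glucose transporter gene SLC2A3 was at 11.4 and 192 TPM in SW1736 and at 2.79 and 3.34 TPM in 8505C. HK2, a hexokinase, was at 25.6 and 173 TPM in SW1736 and at 34.9 and 27.8 TPM in 8505C.

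Cytokine and NF-kB target genes split by member. In all, 12 of 24 were lower in treated 8505C and 4 higher, with a median of -1.07. With vehicle 5 were lower and 9 higher with a median of 0.07. Over all genes 11.7% were lower and 24.3% higher with DHT, and 12.8% and 9.92% with vehicle. CSF2, the growth factor GM-CSF, was listed at 0 in both 8505C libraries and stood at 1.41 and 47.9 TPM in SW1736. CXCL3, a neutrophil chemokine, was listed at 0 in SW1736 with vehicle, at 27.8 TPM with DHT, and at 1.28 and 1.87 TPM in 8505C. LIF, a cytokine of the interleukin-6 family, was SW1736-high in either condition, at 107 and 128 TPM against 1.70 and 1.39 TPM. The 4 genes higher in treated 8505C, named after their values were seen, were CXCL1, CCL2, CSF3 and IL1B, with gaps of 3.00, 2.94, 2.03 and 1.30. With vehicle CXCL1 and CCL2 stood at 3.73 and 2.64, and CSF3 was listed at 0 in SW1736. Of the 20 targets of TGF-beta, 10 were lower and 1 higher with a median of -1.47, and with vehicle 9 were lower and 1 higher with a median of -0.90. SMAD7, the inhibitory SMAD, opened from -0.47 to -3.37, and INHBA, the inhibin beta A subunit, was at 275 and 371 TPM in SW1736 against 1.18 and 1.32 TPM in 8505C in both conditions.

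Of oxidative and translation stress genes, some members were lower in treated 8505C and others were higher or under 2-fold apart. HMOX1, the heme oxygenase of the NRF2 response, read 28.2 and 619 TPM in SW1736 and 12.9 and 13.4 TPM in 8505C. Its gap was -5.43 with DHT and -1.07 with vehicle. In the NRF2 list 9 of 23 genes were lower and 3 higher with a median of -0.73, against 7 lower, 1 higher and -0.53 with vehicle. Over all genes 11.7% were lower and 24.3% higher with DHT, and 12.8% and 9.92% with vehicle. PPP1R15A, the phosphatase subunit that restores translation after stress, was at 96.9 and 1417 TPM in SW1736 and at 113 and 112 TPM in 8505C. CEBPB, a transcription factor of stress and inflammation, turned from a gap of 2.49 to -2.44, and overlaps another gene. In the ATF4 list, 8 of 22 genes were lower and 2 higher with a median of -0.36, against 2 lower, 2 higher and -0.05 with vehicle. HSPA5, the endoplasmic reticulum chaperone BiP, stood at 540 and 1873 TPM in SW1736 and at 541 and 570 TPM in 8505C, yet only 2 of 22 genes of the endoplasmic reticulum list were lower and 1 higher, with a median of 0.09.

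**Figure D3:**
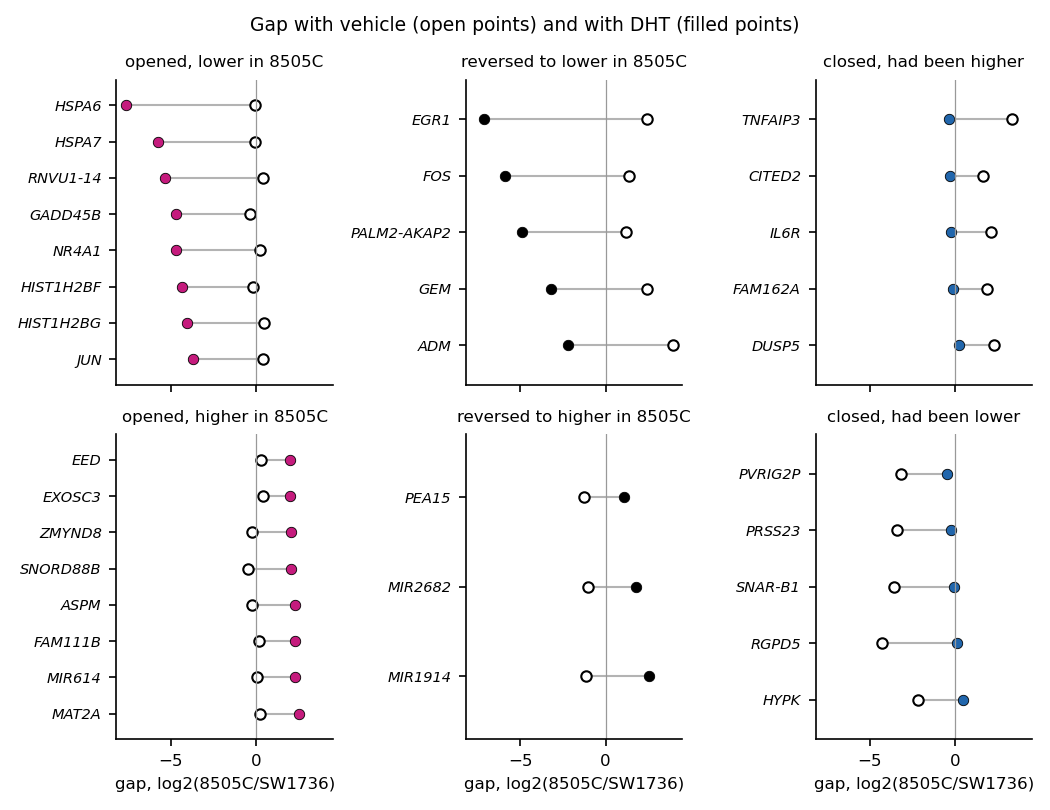
Gap with vehicle (open points) and with DHT (filled points), in log2 of 8505C over SW1736, for named genes whose gap opened, reversed or closed. EGR1 goes from 2.42 to -7.15, the longest line drawn.

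The genes named next opened towards 8505C from a vehicle gap of under 0.5 in size, at a mean of at least 20 TPM. MAT2A, which makes the methyl donor S-adenosylmethionine, was at 218 and 46.1 TPM in SW1736 and at 254 and 268 TPM in 8505C. FAM111B, a protease-like nuclear protein, read 61.6 and 11.9 TPM in SW1736 and 69.2 and 62.7 TPM in 8505C. Their gaps were 2.51 and 2.30 with DHT, and 0.22 and 0.17 with vehicle. EXOSC3, a subunit of the RNA exosome, opened from 0.39 to 2.02. ZMYND8, a chromatin reader, opened from -0.21 to 2.03, and EED, a core subunit of Polycomb repressive complex 2, from 0.30 to 2.01. In these genes treated SW1736 was the single low library. MAT2A, ZMYND8 and EED overlap other genes. MIR614 and SNORD88B met the same rule, but a gene shorter than a sequenced fragment has an unreliable TPM in a messenger RNA library. Among 401 small RNA genes, 67 were higher in treated 8505C and 123 lower, beside 24.3% and 11.7% of all genes. Lower ones were thus the majority of those apart, where over all genes higher ones were.

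Cell division genes are described next by phase. Of 27 measured G2 and M phase genes, 13 were higher and none lower, beside 24.3% and 11.7% of all genes. The list's median was 0.92, beside 0.27 with vehicle, where 1 gene was higher and none lower. ASPM, a spindle pole protein, stood at 50.0 and 7.14 TPM in SW1736 and at 43.0 and 38.2 TPM in 8505C. TOP2A, the topoisomerase of chromosome segregation, stood at 206 and 71.8 TPM in SW1736 and at 334 and 306 TPM in 8505C. CENPE and CENPF, 2 kinetochore proteins, had gaps of 2.32 and 1.72 with DHT and of 0.82 and -0.37 with vehicle. The gap exceeded that with vehicle in 27 of 27 of these genes, beside 77.5% of all genes. After centring, 8 of them were higher and none lower. Of 27 G1 and S phase genes, 7 were higher and 3 lower with a median of 0.26. That lies near all genes, of which 24.3% were higher and 11.7% lower with a median of 0.35. With vehicle 2 of the list were higher and 5 lower, with a median of -0.16. CCNE2, a cyclin of S phase entry, had a gap of 2.22 with DHT and 0.66 with vehicle, and CDKN2B, a CDK4 inhibitor, a gap of -2.26 and -2.31. Both overlap other genes.

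Genes of homologous recombination and the Fanconi pathway, which repair crosslinks and broken chromosomes, were higher in 13 of 26 cases and lower in none. Their median was 0.99, beside 0.05 with vehicle, where none was higher and 1 lower. Over all genes 24.3% were higher and 11.7% lower with DHT, and 9.92% and 12.8% with vehicle. BRCA1 read 32.6 and 9.20 TPM in SW1736 and 41.7 and 36.8 TPM in 8505C. FANCM, a DNA translocase of the pathway, was at 9.03 and 1.74 TPM in SW1736 and at 9.40 and 7.54 TPM in 8505C. FANCB, a core complex subunit, was at 3.31 TPM in treated SW1736 and had a gap of 0.24 with vehicle. Treated SW1736 was the low library for BRCA1 and FANCM, and the 8505C libraries lay close together. Centred on the median gene, 7 of the list were higher and 1 lower.

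Reversed gaps ranged from wide ones to ones just past 2-fold. ADM, the vasodilator peptide adrenomedullin, was at 3.57 and 408 TPM in SW1736 and at 68.5 and 88.7 TPM in 8505C, so its gap went from 3.93 to -2.19. GEM, a small GTPase, was at 2.38 and 173 TPM in SW1736 and at 16.9 and 18.1 TPM in 8505C. PEA15, a death effector domain adaptor, differed between the 8505C libraries as well, at 441 and 206 TPM in SW1736 and at 182 and 435 TPM in 8505C. Its gap went from -1.27 to 1.08, and it overlaps another gene. PALM2-AKAP2, a read-through gene that overlaps its parts, was at 23.6 and 86.6 TPM in SW1736 and at 55.3 and 1.92 TPM in 8505C. TNFAIP3, the NF-kB inhibitor A20, closed from 3.31 to -0.38, with 2.11 and 38.7 TPM in SW1736 and 29.9 and 29.6 TPM in 8505C. IL6R, DUSP5, FAM162A and CITED2 closed in the same direction, with gaps of 2.08, 2.26, 1.89 and 1.61 with vehicle and of -0.24, 0.21, -0.11 and -0.31 with DHT. PRSS23, a serine protease, closed from the other side, from -3.40 to -0.24, through a lower level in treated SW1736, 76.8 and 11.2 TPM against 6.39 and 9.29 TPM in 8505C.

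Other genes were far apart between the lines with and without the compound, among them 3 thyroid transcription factors. NKX2-1, a thyroid and lung factor, was listed at 0 in both SW1736 libraries and stood at 69.8 and 174 TPM in 8505C. PAX8, the paired box factor of thyroid and kidney, was at 87.1 and 117 TPM in SW1736 and at 0.282 and 0.240 TPM in 8505C. FOXE1, a forkhead factor of the thyroid, was at 60.6 and 22.3 TPM in SW1736, at 0.101 TPM in 8505C with vehicle and listed at 0 with DHT. NKX2-1 and PAX8 overlap other genes. Thyroglobulin (TG), the hormone precursor, and the thyrotropin receptor (TSHR) were under 0.1 TPM in all 4 libraries. SLC5A5, the iodide transporter, was listed at 0 in 3 libraries and at 2.39 TPM in treated SW1736. HHEX and GLIS3, other thyroid factors, were found in both lines, HHEX at 28.3 and 33.3 TPM in SW1736 and at 13.5 TPM in both 8505C libraries, and GLIS3 at 13.5 and 11.2 TPM in SW1736 and at 3.20 and 3.16 TPM in 8505C. Those 2 were named after their values were seen.

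Among the highest gaps were several secreted and surface proteins. MMP1, the interstitial collagenase, was listed at 0 and at 0.143 TPM in SW1736 and at 6015 and 4764 TPM in 8505C, a gap of 12.03 with DHT. CD24, a glycosylphosphatidylinositol-anchored sialoglycoprotein, was at 0.255 and 0.393 TPM in SW1736 and at 859 and 922 TPM in 8505C. KISS1, the precursor of kisspeptin, read 0.775 and 0.597 TPM in SW1736 and 837 and 923 TPM in 8505C. ESM1, an endothelial proteoglycan also made by some tumours, was at 503 and 480 TPM in 8505C and at no more than 0.0686 TPM in SW1736. EPB41L3, SFRP1, CDH5, LCE2A, KPRP, GNGT2 and BEX1 were listed at 0 in both SW1736 libraries and were between 87.9 and 409 TPM in 8505C. LCE2A and KPRP are cornified envelope genes, SFRP1 is a secreted WNT antagonist, and CDH5 is the cadherin of endothelial junctions. IFITM2, SDPR and GJA1 completed the 15 highest gaps, with gaps of 8.68, 7.66 and 6.63.

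The lowest gaps with the same sign in both conditions were led by the metallothionein MT1E, at 932 and 885 TPM in SW1736 and listed at 0 in 8505C. KRT19, a simple epithelial keratin, was at 607 and 883 TPM in SW1736 and listed at 0 in 8505C. CRIP1, COL1A2, CDH13 and MT1L were also listed at 0 in both 8505C libraries, with 378, 136, 135 and 219 TPM in treated SW1736. CD70, a ligand of the tumour necrosis factor family, was at 463 and 420 TPM in SW1736 and at 0.307 and 0.238 TPM in 8505C. COL1A1, the fibrillar collagen chain, was at 350 and 146 TPM in SW1736 and at 0.496 and 0.773 TPM in 8505C. RNU4ATAC, a small nuclear RNA of the minor spliceosome, was an exception among the lowest gaps, listed at 0 in SW1736 with vehicle and at 165 TPM with DHT. It overlaps another gene, and the warning given for the short genes MIR614 and SNORD88B holds for it too. MT1E and MT1M passed the level rule only through SW1736 and MT1A only through 8505C. MT2A held 5358 TPM in treated SW1736 and 750 TPM in treated 8505C.

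Matrix, keratin and junction genes differed between the lines in both directions. Among 20 collagens 7 were higher in treated 8505C and 7 lower with a median of 0.13. With vehicle 5 and 10 had been so at a median of -1.27. Over all genes 24.3% were higher and 11.7% lower with DHT, and 9.92% and 12.8% with vehicle. COL6A2 was at 38.3 and 39.6 TPM in 8505C and at 0.318 TPM or listed at 0 in SW1736, while COL6A3, its partner chain in collagen VI, was at 42.8 and 25.6 TPM in SW1736 and at no more than 0.0332 TPM in 8505C. KRT14 and KRT17, keratins of basal and activated epithelium, were listed at 0 in SW1736 and at 85.5 and 9.79 TPM in treated 8505C. Both passed the level rule only through 8505C. KRT15 lay the other way with a gap of -1.97, and overlaps another gene. KRT5, KRT6A, KRT6B and KRT16 were listed at 0 in all 4 libraries. Of 8 measured keratins 3 were higher in treated 8505C and 2 lower. SNAI2, a repressor of epithelial genes, was at 10.8 and 85.6 TPM in SW1736 and at 0.463 and 0.595 TPM in 8505C, and TWIST1, a factor of the same process, was listed at 0 in SW1736 and stood at 14.6 and 16.2 TPM in 8505C. Of 18 mesenchymal genes 7 were lower in treated 8505C and 4 higher, as 7 and 3 had been with vehicle. LAMA5 (6.43) and LAMB3 (-3.39) were laminin chains with gaps of opposite sign, and both overlap other genes.

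**Figure D4:**
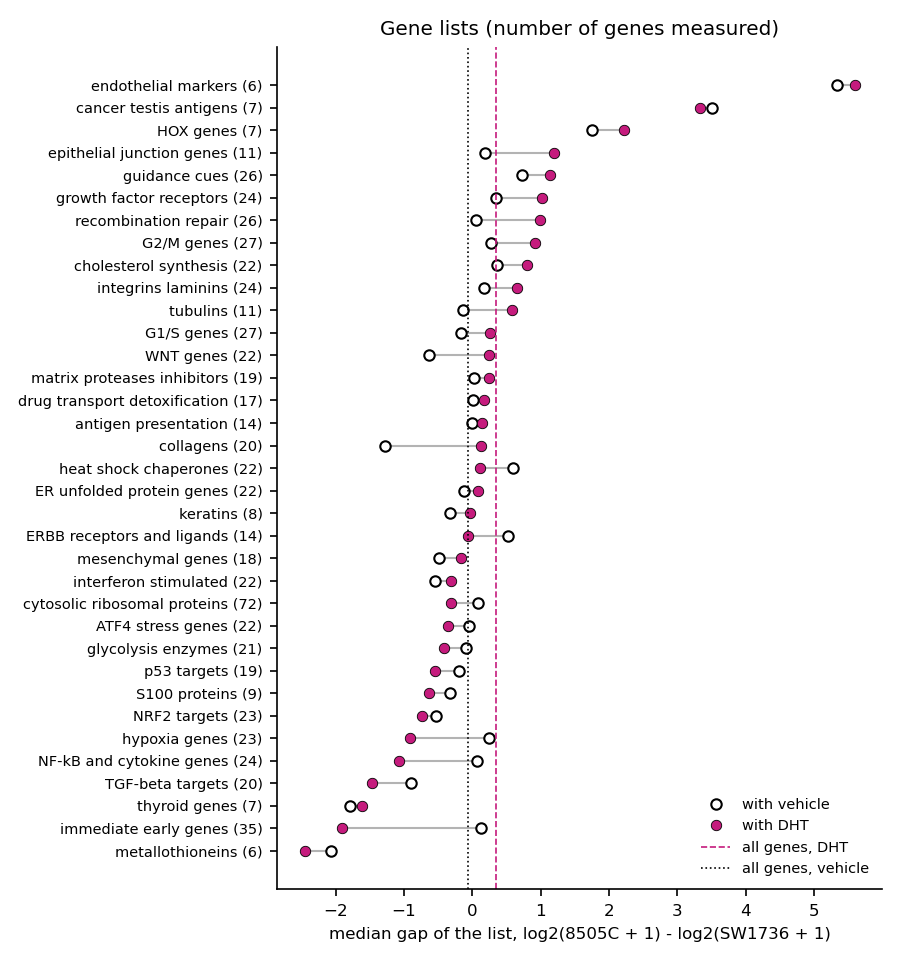
Median gap of each gene list, in log2 of 8505C over SW1736, with DHT and with vehicle. The early gene list stands at -1.90 with DHT and 0.13 with vehicle, and the list of recombination repair genes at 0.99 and 0.05. The medians cover members that passed the level rule, and the endothelial, cancer-testis, HOX and thyroid medians were 0.25, 0.09, 0.00 and -0.01 with no filter.

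Markers of other cell types were checked because the lines are cultures of 1 cell type. Of 15 endothelial markers 6 were measured. CDH5, TIE1, FLT1, ROBO4 and ESM1 passed the level rule only through 8505C, which fixed their direction, and over all members of the list with no filter the median gap was 0.25. The summed level over all 15 was at most 10.7 TPM in SW1736 and 783 and 811 TPM in 8505C, of which ESM1 gave the larger share. KDR and FLT4, endothelial receptors, were listed at 0 in all 4 libraries, and VWF, PECAM1 and TEK stayed under 0.5 TPM. Of 18 immune cell markers 2 were measured, CD68 and CD14, and the T cell genes CD3D, CD3E and CD8A were listed at 0 in every library. The immune sum was 15.8 and 25.6 TPM in SW1736 and 51.2 and 67.7 TPM in 8505C, mostly CD68, a lysosomal protein. Of 15 neural and melanocyte markers only MITF was measured, and among markers of other epithelia GATA3 and AFP were. GATA3 was at 26.7 and 19.9 TPM in SW1736 and at 0.224 and 0.0708 TPM in 8505C. The part of other cells in these gaps was not tested.

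Of the remaining families, cancer-testis antigens, mostly germ line genes of the X chromosome, had 7 measured members. Of these, MAGEA1, MAGEA2, MAGEA12 and PAGE1 passed the level rule only through 8505C. In both conditions 6 of the 7 were higher in 8505C and 1 lower. The lower one was MAGEA11, at 13.8 and 9.34 TPM in SW1736 and at 0.874 and 0.801 TPM in 8505C. With no filter the median gap of the list was 0.09. MAGEA1 was listed at 0 in SW1736 and stood at 33.1 and 33.2 TPM in 8505C. Growth factor receptor and binding protein genes were higher in 12 of 24 cases and lower in 4, against 9 and 6 with vehicle. Guidance cue genes were higher in 13 of 26 cases and lower in 4, and already in 12 and 4 with vehicle. Over all genes 24.3% were higher with DHT and 11.7% lower, which also applies to the cholesterol genes below. NTN4, a netrin, was at 3.81 and 1.30 TPM in SW1736 and at 92.5 and 121 TPM in 8505C. Cholesterol synthesis genes were higher in 9 of 22 cases and lower in 1, INSIG1, with a median of 0.80 against 0.36 with vehicle. SQLE, the squalene epoxidase, was at 18.6 and 10.4 TPM in SW1736 and at 93.1 and 84.1 TPM in 8505C. Ribosomal protein genes were lower in 7 of 72 cases, a share near the 11.7% of all genes, and higher in none, beside 24.3% of all genes, with a median of -0.31 against 0.09 with vehicle. TUBB, a beta tubulin counted at 8 loci, opened from -0.60 to 2.69, with 1835 and 295 TPM in SW1736 and 1210 and 1910 TPM in 8505C, and its split between loci makes that value uncertain.

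The gaps were also uneven along the genome, in the same way with and without DHT. With DHT the highest chromosome medians were 1.08 on chromosome 4, 0.88 on chromosome 8, 0.82 on chromosome 17 and 0.81 on chromosome 6. The lowest were -0.30 on chromosome 7, -0.29 on chromosome X, -0.28 on chromosome 19 and -0.23 on chromosome 10. With vehicle these 8 chromosomes stood at 0.56, 0.55, 0.43, 0.40, -0.64, -0.75, -0.57 and -0.65, each below its treated value, as was the median of all genes. On chromosome 4, 54.3% of 427 genes were higher in treated 8505C and 5.62% lower, and on chromosome 7, 9.22% of 640 genes were higher and 18.8% lower. In 237 stretches of 10 Mb with at least 20 genes, the stretch medians with DHT and with vehicle had a Pearson r of 0.94 and a Spearman rho of 0.92. Of these, 40 lay at least 0.5 above the median of all genes with DHT, 33 of them also with vehicle, and 29 at least 0.5 below, 24 of them also with vehicle. None lay at least 0.5 above in 1 condition and at least 0.5 below in the other. Copy number was not analysed here.

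**Figure D5:**
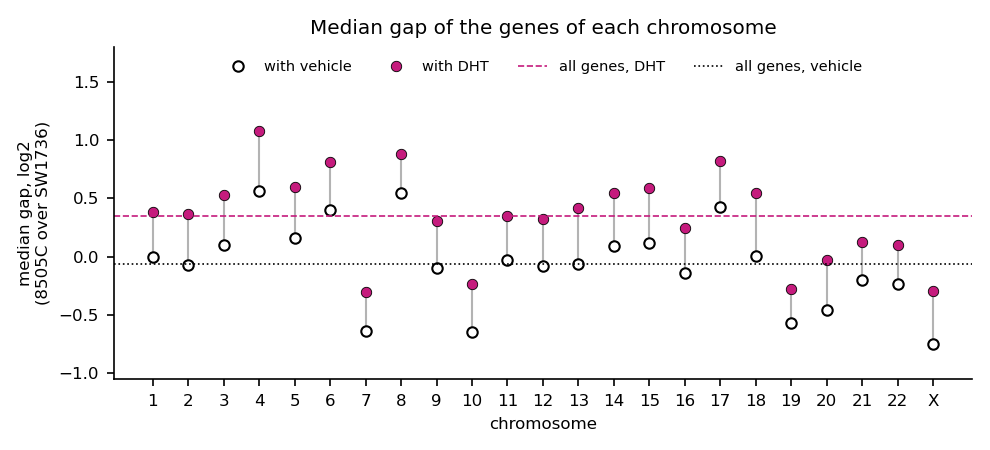
Median gap of the genes of each chromosome, in log2 of 8505C over SW1736, with DHT and with vehicle. Chromosome 4 has the highest treated median, 1.08, and chromosome 7 the lowest, -0.30.

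Runs of at least 4 neighbouring members under 0.1 TPM in 1 treated line and over 2 TPM in the other marked 6 places, given on hg38. CBFB, C16orf70, B3GNT9 and TRADD, side by side at chr16:67029147-67159909, were listed at 0 in both 8505C libraries and stood at 42.1, 16.8, 24.3 and 18.5 TPM in treated SW1736. CBFB codes for the common partner of the RUNX factors and TRADD for an adaptor of the tumour necrosis factor receptor. The next gene, FBXL8, was at 3.30 TPM in treated SW1736 and 0.136 TPM in treated 8505C, and CES3 on the other side at 0.0630 and 2.69 TPM. The choriogonadotropin beta genes CGB, CGB5, CGB8 and CGB7 at chr19:49022869-49055740 were listed at 0 in 8505C and were between 2.78 and 6.97 TPM in treated SW1736, near copies of each other whose reads may be shared.

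The other 4 runs were present in 8505C. SFTA3, NKX2-1, NKX2-1-AS1 and NKX2-8 at chr14:36473289-36582581 were listed at 0 in SW1736, while MBIP and PAX9 beside them were not, with 9.23 and 0.913 TPM in treated SW1736. FLG, FLG-AS1, LCE2A, KPRP and SPRR2D at chr1:152302175-153041118 belong to the epidermal differentiation complex, and LCE2A was at 110 and 207 TPM in 8505C. SNRPN, SNURF, PWAR5 and 4 small nucleolar RNA genes at chr15:24823647-25278409, an imprinted region, were listed at 0 in both SW1736 libraries. SNURF was at 43.4 and 37.3 TPM in 8505C, and UBE3A next to the run was at 27.0 TPM in treated SW1736 and 36.3 TPM in treated 8505C. The genes of the run overlap one another, so the division of reads among them is uncertain. FGB and FGG, fibrinogen chains, with MAP9 and GUCY1B3 at chr4:154562980-155807642 were listed at 0 in treated SW1736 and were between 2.17 and 15.2 TPM in treated 8505C.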

How the data were processed

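Per the labels, RNA was extracted with the RNeasy Mini kit and libraries were made from total RNA with the Universal Plus mRNA-Seq kit. Base calls were converted with bcl2fastq 2.20 and StringTie made the gene tables on hg38, per the submitters' processing notes. For the aligner, the annotation and the StringTie version, the entry is: not given in the sources used here. Each deposited table gives the authors' TPM, FPKM and coverage per gene. TPM was summed per gene identifier (1446 identifiers had several rows), and FPKM and coverage served for library properties and 1 alternative. Gaps were log2(TPM + 1) differences with Python 3.11.15, pandas 2.3.3 and numpy 2.4.6. The code that counts the classes was checked on simulated levels with planted 4-fold changes in genes of at least 5 TPM. That check covers the code only and says nothing about the counts in these libraries. With 1 library a group no test was made, and counting error is unknown because no read counts were used. Members and lists were chosen with earlier results of these data known. Named genes were the 3 markers, the 15 highest and lowest gaps at a mean of at least 20 TPM, the largest opened, reversed and closed gaps, up to 4 members of each list, the 5 most abundant genes and the ends of runs. Some genes named outside these rules are said to be so. Others, such as LOX, INSIG1, further cell type markers and the genes beside runs, were named without that remark. Of 26485 identifiers 25320 matched RefSeq, and 4602 members (35.3%) overlapped another gene or had several loci. Overlap is not stated beside every named gene. TNFAIP3, PRSS23, CRYAB, MMP1, INHBA, SFRP1, GNGT2, CDH13, NTN4 and GLIS3 are among others that overlap another gene. XIST and genes of the Y chromosome were left out. Alternatives were other pseudocounts, level filters, FPKM, median centring, gene subsets and a 4-fold threshold.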

Additional observations from a re-analysis of the deposited data

Results flagged for a closer look

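In 3 genes named for a reversed or closed gap the levels with DHT and with vehicle differed at least 2-fold in opposite directions in the 2 lines, and the difference was not tested, with 1 library a group. PEA15 was 1.25 higher in log2 with DHT than with vehicle in 8505C and -1.10 in SW1736. PALM2-AKAP2 stood at -4.27 in 8505C and 1.83 in SW1736. RGPD5 stood at 3.09 in 8505C and at -1.30 in SW1736. The 8505C vehicle library lists this gene at 0, so that value depends on the pseudocount. All 3 overlap other genes in the files, and RGPD5 has 3 loci, so how reads were divided among the overlapping genes is uncertain and its part in these values was not tested.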

How the results depend on the processing

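No paired analysis was possible because each group had 1 library, and for the same reason no library could be left out. Of 156 named genes above 0 in both treated libraries, none with a gap of at least 2-fold turned its sign under any alternative run. Under 2-fold, the sign turned for RGPD5 (-0.27), DUSP5 (-0.15) and ACTB (-0.16) among others with centring, and for RGPD5 (-0.08) and ACTB (-0.01) on FPKM. Counts that moved by over 1.5 times are given here. With a pseudocount of 0.1, 57 gaps reversed to lower and 31 to higher. With a pseudocount of 5, 1807 genes were higher and 949 lower with DHT, 674 and 534 gaps were kept, 1132 opened higher, 408 that had been lower closed, 10 reversed to lower and 1 to higher, and 5 lists lay at least 0.5 above all genes. At a mean of at least 5 TPM, 747 and 632 gaps were kept, 422 that had been lower closed and 3 reversed to higher. With no filter on low values 7 lists lay at least 0.5 below all genes and 0 chromosomes lay 0.2 or more from all genes. On FPKM, 1906 genes were higher, 1062 gaps opened higher, 396 that had been lower closed and 2 reversed to higher. Centred on the median gene, 1934 were higher, 852 opened higher and 1022 lower, 255 that had been higher and 384 that had been lower closed, and 30 reversed to lower. Among protein-coding genes 2 reversed to higher, and without ribosomal protein genes 28 reversed to lower. At 4-fold, 768 were higher and 619 lower, 460 and 354 were kept, 308 and 259 opened, 49 that had been higher and 177 that had been lower closed, and 6 reversed to lower and 0 to higher. Among genes that overlap no other gene, an alternative chosen after seeing the data, 995 were lower, 337 opened lower, 64 that had been higher and 454 that had been lower closed, and 11 reversed to lower and 1 to higher. Some list medians moved too. The ERBB list median of -0.06 was 1.61 among genes that overlap no other gene and -0.64 at a mean of at least 5 TPM. Under the same alternatives the collagen median of 0.13 was 1.14 and -0.42. The TGF-beta median of -1.47 was -0.60 among genes that overlap no other gene. Fewer genes entered the subsets, and for the scalings the cause was not tested. Depth is known only as 3.26 to 4.14 Gb of aligned sequence, so differences of genes near 1 TPM have no counting error here.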

Other observations

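The list of ERBB receptors, ligands and feedback inhibitors had 6 of 14 measured genes higher in treated 8505C and 5 lower, with a median gap of -0.06, beside 24.3% and 11.7% and 0.35 for all genes. The same shares of all genes apply to the counts below. AREG, the ligand amphiregulin, was at 0.305 and 0.614 TPM in SW1736 with vehicle and DHT and at 34.5 and 58.5 TPM in 8505C. ERRFI1, a feedback inhibitor of the EGF receptor, lay the other way with DHT, at 61.6 and 278 TPM in SW1736 and at 43.1 and 39.4 TPM in 8505C. CD274, the immune checkpoint ligand PD-L1, was at 8.81 and 17.3 TPM in SW1736 and at 160 and 151 TPM in 8505C. Of 14 antigen presentation genes 2 were higher in treated 8505C and 3 lower, with HLA-C, counted at 7 loci, at 568 TPM in treated SW1736 and 234 TPM in treated 8505C.

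Drug transport and detoxification genes were higher in 5 of 17 cases and lower in 6. GSTM3, a glutathione transferase, was listed at 0 in SW1736 and at 30.7 and 28.1 TPM in 8505C, and GSTM4 was listed at 0 in 8505C and at 9.27 and 8.84 TPM in SW1736. ALDH1A3, a retinaldehyde dehydrogenase, was at 107 and 75.5 TPM in SW1736 and at 4.25 and 4.21 TPM in 8505C. Of 39 HOX genes 7 were measured, among them HOXB9, listed at 0 in SW1736 and at 5.35 and 5.48 TPM in 8505C. Interferon-stimulated genes were higher in 3 of 22 cases and lower in 5, with OASL listed at 0 in 8505C and at 7.34 and 11.3 TPM in SW1736. The S100 calcium-binding proteins were lower in 4 of 9 cases and higher in 1, S100A4, and S100A2 had gaps of -2.98 with DHT and -3.09 with vehicle.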
